A study of Mus musculus with 14 samples.

Results

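Collagen chain genes were followed across mouse livers with and without diet-induced steatohepatitis and across treatment with a fatty acid or its leucine conjugate. Members were all genes of the count table whose symbol has the form of a collagen chain (Col, a type number, a and a chain number), which gave 44 of 45706 genes. Of these, 33 had at least 10 counts in 3 or more libraries and are described by class; all 33 also passed the filter of the test across genes. The other 11 stayed under that rule. Col2a1 (cartilage fibrils), Col10a1 (growth plate) and Col26a1 had no count in any of the 14 libraries, and Col11a1, a cartilage fibril chain, reached 17 counts in its highest library. Col9a1, Col9a2, Col19a1, Col22a1, Col6a4, Col17a1 and Col28a1 reached at most 11 counts.

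Collagens are built from 3 chains wound into a triple helix, and the chains of a molecule may come from different genes. Fibrillar collagens form the scar of a fibrotic liver, FACIT collagens decorate the fibril surface, and type IV chains form the sheet of basement membranes. Beaded filament (type VI), network (type VIII) and multiplexin collagens lie around cells and vessels. In the liver, stellate cells, portal fibroblasts and the cells of sinusoids and ducts are known sources of these chains, whereas hepatocytes are known to make Col18a1.

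RNA was sequenced from livers of male C57BL6/J mice that entered the study at 8 weeks of age. The MASH OAL group (3 libraries, replicates 1, 2 and 4) received the MASH diet, which is given to induce metabolic dysfunction-associated steatohepatitis, for 16 weeks, and C18:1-leucine for 6 further weeks on that diet. The MASH OA group (4 libraries) received C18:1, a monounsaturated fatty acid, in the same way, and the MASH group (3 libraries, replicates 2, 3 and 4) the diet without either compound. The CD group (4 libraries) received standard chow. The labels give no dose, do not say which libraries received vehicle, and state no time on chow after the first 16 weeks. The labels do not say that the libraries of a group came from separate mice, so p-values measure only the spread between these libraries.

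Total counts lay between 33821874 and 51107248 per library. In 2 libraries the tag and the title name different treatments: MASH OA replicate 1 was tagged with diet alone and MASH OAL replicate 1 with OA. Groups follow the titles. The hepatocyte marker Alb lay between 28830 and 70990 CPM (counts scaled to a common library size) in all libraries. Markers of 3 other tissues were uneven. The summed CPM of 7 cholangiocyte markers was 22.9, 22.1 and 35.4 in MASH OAL, 53.98, 23.3, 59.1 and 29.8 in MASH OA, 23.4, 22.6 and 49.8 in MASH and 24.2, 20.8, 19.7 and 21.1 in CD. Pancreatic enzyme transcripts stood out in MASH OAL replicate 2 (664 CPM in sum) and CD replicate 2 (176 CPM). All other libraries had 3.91 to 7.68 CPM. Mesothelial markers were highest in MASH OA replicate 3 (16.1 CPM) and MASH OAL replicate 4 (13.6 CPM).

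Col18a1, the multiplexin chain from which endostatin is cut, was the most abundant collagen transcript in every group, also per kilobase of transcript. It held 50.9 to 62.8% of all collagen CPM in MASH OAL livers, 30.3 to 53.7% in MASH OA, 40.8 to 58.5% in MASH and 76.9 to 79.0% in CD. The ranges of the 3 diet groups all lay below that of CD. Its own level in MASH livers was 866, 962 and 807 CPM, against 1102, 1172, 1005 and 1072 CPM in CD livers. All MASH values lay below all CD values, and the log2 fold change of −0.31 ± 0.12 (SE; edgeR adjusted p = 0.0618) missed the threshold of 0.05.

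Without Col18a1, the collagen chains summed to 568 to 753 CPM in MASH OAL, 695 to 1694 in MASH OA, 614 to 1171 in MASH and 282 to 342 in CD. Per kilobase, Col3a1 (type III fibrils) ranked second in MASH OAL, MASH OA and MASH livers and the eighth in CD livers. In CD livers the second place was held by Col5a3, a minor fibrillar chain, at 13.03 ± 4.04 CPM per kilobase (SD, n = 4). Within the collagen CPM other than Col18a1, Col1a1, Col1a2 and Col3a1 together made up 22.2 to 30.4% in MASH OAL, 30.5 to 41.9% in MASH OA, 23.1 to 40.3% in MASH and 6.14 to 8.92% in CD. The fibrillar class as a whole had overlapping shares in all groups: it held 50.6 to 55.7% in MASH OAL, 51.1 to 56.1% in MASH OA, 49.4 to 57.9% in MASH and 50.1 to 56.9% in CD.

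**Figure D1:**
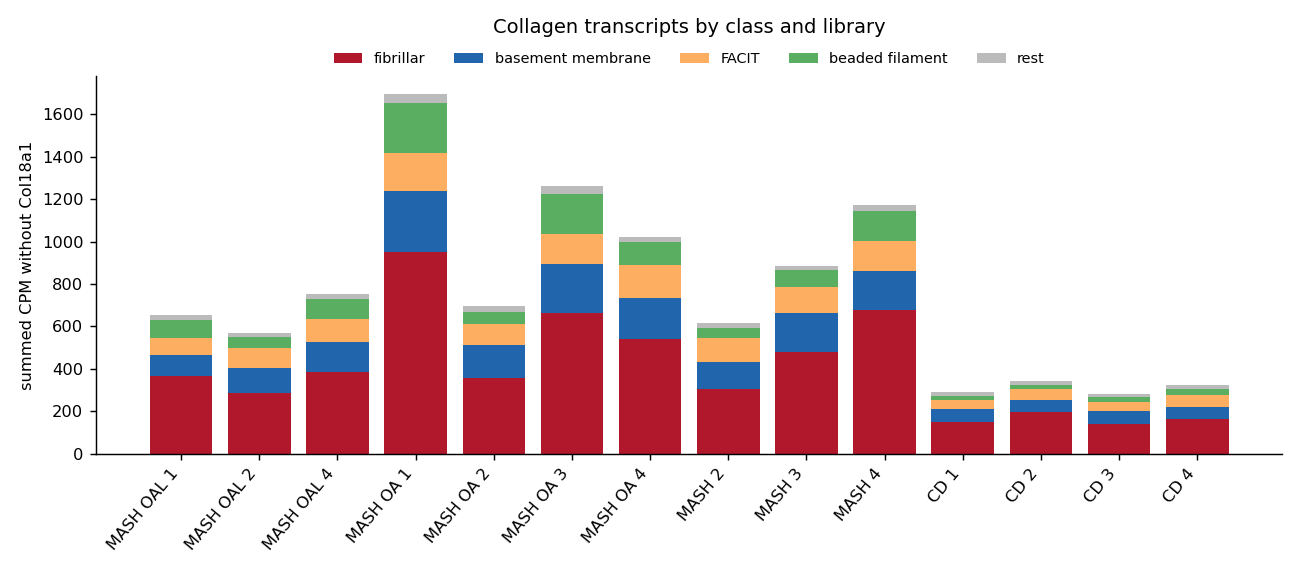
Summed CPM of collagen chains other than Col18a1, by library and class; each bar is a library and the grey part holds Col15a1, types VII and VIII and the transmembrane chains. The 4 CD libraries sit between 282 and 342 CPM, below the lowest library on the MASH diet at 568 CPM, and MASH OA replicate 1 is the highest at 1694 CPM.

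The comparison of MASH with CD livers asks how the collagen transcripts differ on the MASH diet. Of 33 collagen genes, 17 were higher and 2 lower in MASH, where 20.4% of all 15674 tested genes were higher and 15.1% lower (edgeR, adjusted p under 0.05). The median log2 fold change of the collagen genes was 1.26, against 0.01 over all tested genes. The 17 comprised 6 of 9 fibrillar, 4 of 5 FACIT, 3 of 5 beaded filament, 2 of 6 basement membrane, 1 of 2 network and 1 of 2 multiplexin chains. The groups did not overlap for 16 genes that were higher and 4 that were lower in MASH, where 22.5% and 17.8% of all tested genes did so. In whole liver RNA, more cells of a type and more RNA per cell cannot be told apart.

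Type I and type III fibril chains had the largest differences. Col1a1, the major chain of type I collagen, stood at 25.3, 48.8 and 95.1 CPM in MASH replicates 2, 3 and 4, against 3.05, 2.04, 1.86 and 3.97 CPM in CD replicates 1 to 4. The lowest MASH library lay above the highest CD library, and the log2 fold change was 4.37 ± 0.53 (SE; edgeR adjusted p = 0.000107). Col1a2, its partner chain, stood at 38.9, 66.7 and 124 CPM in MASH and 8.31, 7.23, 7.83 and 10.4 CPM in CD, a log2 fold change of 3.18 ± 0.44 (SE; edgeR adjusted p = 0.000241). Col3a1, which forms thinner fibrils together with type I, stood at 77.8, 149.6 and 253 CPM in MASH and 12.6, 11.7, 9.14 and 14.3 CPM in CD, a log2 fold change of 3.75 ± 0.44 (SE; edgeR adjusted p = 7.99e-05). For each of these chains MASH replicate 4 was the highest library and MASH replicate 2 the lowest of the group, and neither group overlapped the other.

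Type V chains, which start fibrils and limit their width, moved unequally. Col5a2 stood at 9.46, 17.2 and 21.8 CPM in MASH and 2.65, 2.08, 2.52 and 3.06 CPM in CD (log2 fold change 2.65 ± 0.32, SE; edgeR adjusted p = 7.77e-05). Col5a1 stood at 17.6, 24.8 and 29.3 CPM in MASH and 6.59, 8.09, 8.26 and 9.10 CPM in CD (log2 fold change 1.58 ± 0.22, SE; edgeR adjusted p = 0.000189). Col5a3, the third chain of the type, stood at 105, 129.6 and 114 CPM in MASH and 65.7, 116, 64.2 and 72.8 CPM in CD, a log2 fold change of 0.54 ± 0.18 (SE; edgeR adjusted p = 0.0313). Its groups overlapped through CD replicate 2, the CD library with pancreatic transcripts, without which the log2 fold change was 0.78 (edgeR adjusted p = 0.000484). The call ended without CD replicate 1, 3 or 4 (edgeR adjusted p = 0.0765, 0.0842 and 0.0818) and without MASH replicate 3 or 4 (highest adjusted p = 0.105). MASH OAL replicate 2, with more pancreatic transcripts, had 91.7 CPM of Col5a3, between the other libraries of its group. The part of pancreatic tissue in the Col5a3 values was not tested. The remaining fibrillar chains Col11a2, Col24a1 and Col27a1, known best from cartilage and bone, had log2 fold changes of −0.16 ± 0.27, −0.12 ± 0.34 and −0.40 ± 0.23 (SE) and were not called. For Col27a1 all MASH values (26.6, 37.6 and 38.4 CPM) nevertheless lay below all CD values (43.6, 44.3, 44.96 and 47.96 CPM).

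**Figure D2:**
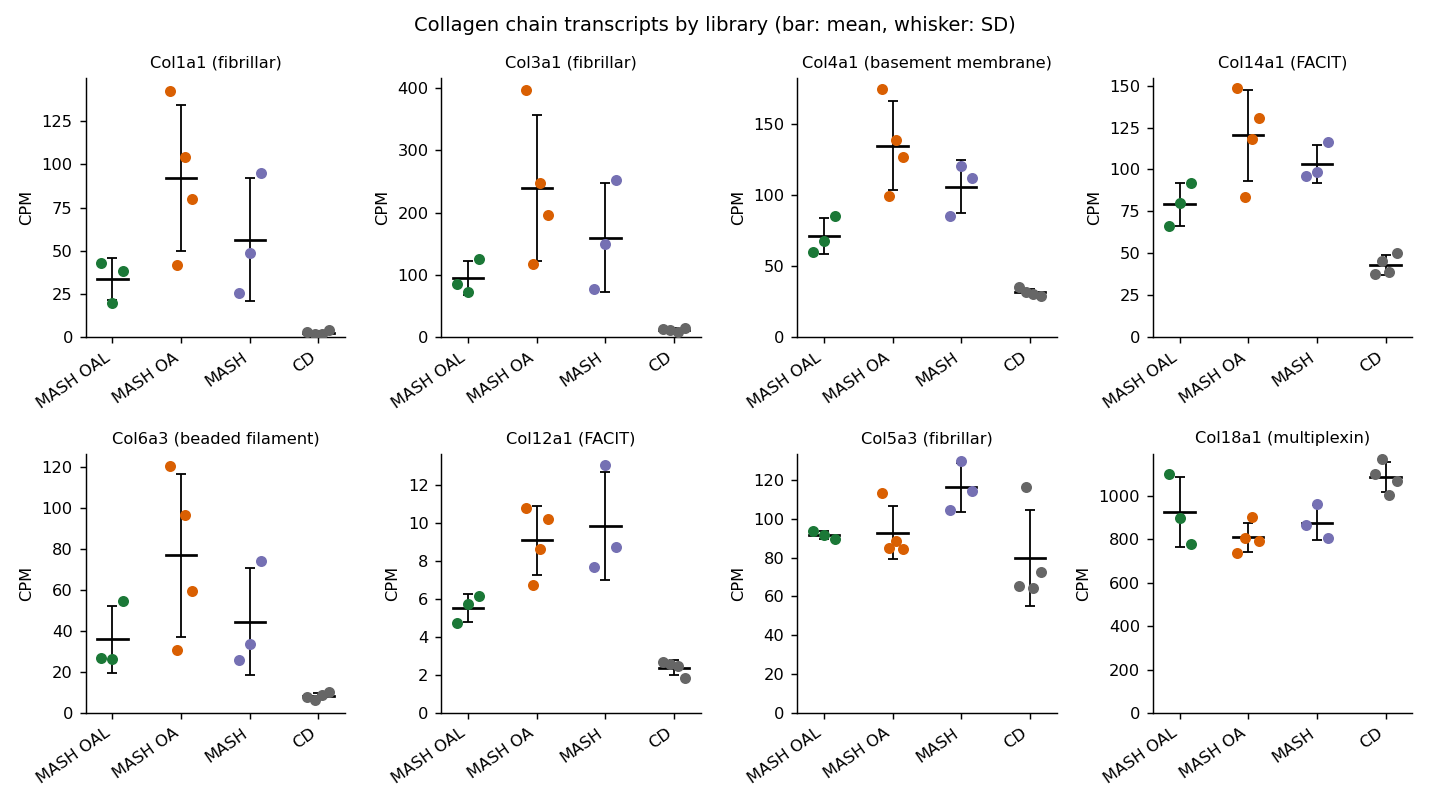
CPM of 8 collagen chains in each library, by group; points are libraries, bars the mean and whiskers the SD of 3 (MASH OAL, MASH) or 4 (MASH OA, CD) libraries. Col1a1 spans 25.3 to 95.1 CPM in MASH and 1.86 to 3.97 CPM in CD, while Col18a1 lies below all CD libraries in MASH and MASH OA.

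Upstream sequence is shown for the fibrillar chains with an entry in the RefSeq promoter table (GRCm38.p6) that moved most, Col1a2 and Col3a1, and for Col5a3, which moved least of the chains called. Capitals mark 3 motifs, each searched as written and as its reverse complement. The GC box has the letters GGGCGG. The CCAAT box is read as its name is spelled. The TATA box has the letters TATAAA. The Col1a2 stretch lies at chr6:4505368-4505492 on the plus strand and ends just before the first coding transcript of the GENCODE annotation. The annotated gene starts at 4504814, so this stretch is upstream of the coding transcript but inside the gene. The Col3a1 stretch lies at chr1:45311288-45311537 (plus) and the Col5a3 stretch at chr9:20815068-20815317 (minus), each the 250 bases before the annotated start.
Col1a2: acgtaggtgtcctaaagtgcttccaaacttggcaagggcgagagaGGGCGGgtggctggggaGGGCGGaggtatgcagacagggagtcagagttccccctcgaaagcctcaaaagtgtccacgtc
Col3a1: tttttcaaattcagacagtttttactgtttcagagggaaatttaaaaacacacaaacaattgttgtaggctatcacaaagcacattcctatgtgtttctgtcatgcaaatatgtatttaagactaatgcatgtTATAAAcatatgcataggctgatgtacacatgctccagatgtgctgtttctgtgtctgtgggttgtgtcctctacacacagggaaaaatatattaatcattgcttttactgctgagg
Col5a3: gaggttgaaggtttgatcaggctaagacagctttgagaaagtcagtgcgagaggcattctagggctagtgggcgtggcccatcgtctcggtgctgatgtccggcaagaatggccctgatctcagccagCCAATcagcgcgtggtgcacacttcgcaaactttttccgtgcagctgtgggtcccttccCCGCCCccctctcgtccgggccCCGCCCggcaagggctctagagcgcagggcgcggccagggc

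Col1a2 held 2 GC boxes in the 125 bases shown, a shorter stretch than the 250 bases of Col3a1 and Col5a3, so the motifs found are not from like regions. Col3a1 held 1 TATA box and neither of the other motifs. Col5a3 held 2 GC boxes and 1 CCAAT box. No 2 marked motifs overlapped. Of the 27 collagen genes that passed the count rule and had an entry, 18 (66.7%) held a GC box in the 250 bases before the start, 9 (33.3%) a CCAAT box and 3 (11.1%) a TATA box. Of all 27025 genes with an entry, the shares were 35.4%, 37.5% and 14.3%. These genes were taken without a count rule, so the sets are unlike and the difference cannot be read as a trait of collagen genes. Of the 12 with an entry among the collagen genes higher in MASH, 7 held a GC box, 5 a CCAAT box and 1 a TATA box. A match of letters is a description, not a site.

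FACIT collagens, which bind to fibril surfaces, were mostly higher in MASH. Col12a1 stood at 7.72, 13.1 and 8.76 CPM in MASH and 2.67, 2.58, 2.49 and 1.82 CPM in CD, a log2 fold change of 2.04 ± 0.21 (SE; edgeR adjusted p = 2.22e-05). Col14a1, a FACIT chain of soft connective tissue, stood at 95.9, 98.2 and 116 CPM in MASH and 37.7, 45.7, 38.7 and 49.96 CPM in CD (log2 fold change 1.27 ± 0.17, SE; edgeR adjusted p = 0.000163). Unlike the type I chains, Col14a1 varied little within MASH, and in both genes the groups were apart. Col16a1 differed by 1.67 ± 0.27 (SE; edgeR adjusted p = 0.000539) and Col9a3, a low cartilage chain, by 1.47 ± 0.49 (SE; edgeR adjusted p = 0.0333). Exons of Col9a3 overlap Tcfl5 on the other strand by 234 bases. Col20a1 was lower in all MASH libraries (0.766, 0.458 and 1.04 CPM) than in all CD libraries (1.21, 1.13, 1.13 and 1.41 CPM), without passing the threshold (log2 fold change −0.68 ± 0.26, SE; edgeR adjusted p = 0.0566).

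Of the basement membrane chains, only Col4a1 and Col4a2, the pair found in nearly all basement membranes, passed the threshold in MASH against CD. Col4a1 stood at 85.2, 120.3 and 112 CPM in MASH and 34.98, 31.8, 30.3 and 28.97 CPM in CD, a log2 fold change of 1.75 ± 0.18 (SE; edgeR adjusted p = 2.2e-05). Col4a2 stood at 39.9, 62.9 and 60.1 CPM in MASH and 24.3, 23.1, 23.9 and 23.3 CPM in CD, a log2 fold change of 1.20 ± 0.19 (SE; edgeR adjusted p = 0.000483). The CD libraries were tight, and the groups were apart for both chains. These genes lie head to head on chromosome 8 (GRCm38): Col4a1 starts at 11312826 on the minus strand and Col4a2 at 11312805 on the plus strand, so that their first exons overlap by 22 bases.

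The other type IV chains, known from kidney, lung and smooth muscle basement membranes, were low. Col4a5 stood at 1.51, 1.74 and 5.85 CPM in MASH and 1.12, 1.39, 1.41 and 1.71 CPM in CD, and Col4a6 at 0.352, 0.549 and 1.78 CPM in MASH and 0.374, 0.178, 0.126 and 0.324 CPM in CD. In both, MASH replicate 4 stood above the rest and the groups overlapped. The log2 fold change was 1.11 ± 0.59 (SE; edgeR adjusted p = 0.157) for Col4a5 and 1.84 ± 0.73 (SE; edgeR adjusted p = 0.0659) for Col4a6. Col4a3 and Col4a4 differed by 0.07 ± 0.63 and 0.75 ± 0.60 (SE), with adjusted p of 0.944 and 0.346 (edgeR). Col4a3 and Col4a4 also lie head to head, on chromosome 1, and the stretch between their annotated starts is shown because it is the whole of what separates the pair. It holds 71 bases at chr1:82586850-82586920 (GRCm38.p6, minus strand, read towards Col4a4), with no GC, CCAAT or TATA box.
Col4a3 to Col4a4: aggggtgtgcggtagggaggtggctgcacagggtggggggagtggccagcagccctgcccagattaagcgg

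Col4a5 and Col4a6, head to head on chromosome X, are 1308 bases apart. Exons of Col4a3 overlap a transcript on the other strand by 563 bases, and the sources used here do not say whether counting used the strand.

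Type VI chains, which form beaded filaments between fibrils and cells, were higher in MASH for the 3 main chains. Col6a3 stood at 25.8, 33.7 and 74.5 CPM in MASH and 7.88, 6.34, 8.53 and 10.4 CPM in CD, a log2 fold change of 2.43 ± 0.48 (SE; edgeR adjusted p = 0.00241). Col6a2 differed by 2.31 ± 0.52 (SE; edgeR adjusted p = 0.00519) and Col6a1 by 1.74 ± 0.43 (SE; edgeR adjusted p = 0.0085). No MASH library fell into the CD range for these chains, with MASH replicate 4 the highest. The minor chains Col6a5 and Col6a6 differed by 1.43 ± 0.81 and −0.15 ± 0.53 (SE) and were not called.

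Among the rest, Col8a1, a chain of the hexagonal networks around vessels, stood at 0.725, 1.19 and 2.44 CPM in MASH and 0.201, 0.415, 0.403 and 0.147 CPM in CD (log2 fold change 2.30 ± 0.49, SE; edgeR adjusted p = 0.00332), and Col8a2 was not called (0.49 ± 0.65, SE). Col15a1, the second multiplexin, stood at 8.22, 6.73 and 19.1 CPM in MASH and 6.62, 5.60, 2.97 and 3.83 CPM in CD (log2 fold change 1.26 ± 0.44, SE; edgeR adjusted p = 0.0403). Col15a1 was 6.73 CPM in the lowest MASH library and 6.62 CPM in the highest CD library, so the groups barely separated. Both genes that were lower are low in abundance. Col7a1, the chain of anchoring fibrils, stood at 0.476, 0.549 and 0.471 CPM in MASH and 1.84, 0.889, 1.13 and 1.00 CPM in CD, all MASH values below all CD values (log2 fold change −1.28 ± 0.32, SE; edgeR adjusted p = 0.00744). Col25a1, a transmembrane chain known from brain, stood at 0.186, 0.114 and 0.205 CPM in MASH and 0.144, 0.356, 0.705 and 1.03 CPM in CD, with overlap through CD replicate 1 (log2 fold change −1.71 ± 0.59, SE; edgeR adjusted p = 0.0384). The Col25a1 call ended without both libraries whose labels disagree (edgeR adjusted p = 0.052). Of the other transmembrane chains, Col13a1 and Col23a1 were not called (−0.41 ± 0.32 and 0.60 ± 0.35, SE). Col13a1 stood at 9.98, 10.9 and 3.75 CPM in MASH, with MASH replicate 4 alone far below the 11.1, 10.9, 10.4 and 11.3 CPM of CD.

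Leaving out each of the 14 libraries in turn kept 14 of the 19 calls throughout. Without MASH replicate 4, the MASH library with the most cholangiocyte transcripts, 13 genes were higher and 2 lower and the median was 0.85. Over all 15890 genes of that fit, 2373 were higher and 1438 lower. Col5a3, Col6a1, Col9a3, Col15a1 and Col25a1 were not called without MASH replicate 4. Over the 14 fits the call was lost in 6 for Col15a1, 5 each for Col5a3 and Col25a1, 4 for Col9a3 and 1 for Col6a1. Beside these calls, stellate cell markers summed to 357 to 413 CPM in MASH and 226 to 290 CPM in CD (6 of 9 higher, none lower), and portal fibroblast markers to 81.8 to 158 CPM in MASH and 39.6 to 60.6 CPM in CD (5 of 7 higher, none lower). Myofibroblast and smooth muscle markers summed to 33.4 to 63.6 CPM in MASH and 18.3 to 34.2 CPM in CD (3 of 7 higher, none lower), with Acta2 at 1.86, 7.51 and 3.38 CPM in MASH and 4.98, 0.889, 0.982 and 1.18 CPM in CD. Macrophage markers summed to 378 to 454 CPM in MASH and 152 to 256 CPM in CD (5 of 6 higher, none lower), and hepatocyte markers to 54930 to 62390 CPM in MASH and 86040 to 107900 CPM in CD (6 of 7 lower, none higher). Cholangiocyte markers summed to 22.6 to 49.8 CPM in MASH and 19.7 to 24.2 CPM in CD. Their median log2 fold change was 1.53, with 0 of 7 called in either direction (edgeR). Mesothelial markers summed to 3.77 to 9.17 CPM in MASH and 0.834 to 3.44 CPM in CD (1 of 6 higher, none lower). Sinusoidal endothelial markers summed to 269 to 359 CPM in MASH and 294 to 345 CPM in CD (2 of 7 higher, 1 lower). The part of these cell types in the collagen differences was not tested.

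The proportion of partner chains differed between groups for some pairs and overlapped for others. On the scale of CPM per kilobase of transcript, the ratio of Col1a1 to Col1a2 was 0.553, 0.538 and 0.591 in MASH OAL, 0.748, 0.727, 0.734 and 0.703 in MASH OA, 0.588, 0.660 and 0.694 in MASH and 0.331, 0.255, 0.215 and 0.345 in CD. Every library on the MASH diet lay above every CD library, and every MASH OA library above every MASH OAL library. The latter holds for groups from the titles only. By its tag MASH OAL replicate 1 (0.553) counts as MASH OA, and the treated groups then overlap. The ratio of Col4a1 to Col4a2 was 1.61, 1.47 and 1.77 in MASH OAL, 1.69, 1.76, 1.73 and 1.87 in MASH OA, 2.08, 1.86 and 1.82 in MASH and 1.40, 1.34, 1.24 and 1.22 in CD. CD was again the lowest group without overlap, while MASH OAL and MASH OA overlapped. The ratio of Col5a1 to Col5a2 ran the other way, at 1.47, 1.14 and 1.06 in MASH and 1.96, 3.07, 2.58 and 2.34 in CD. For the minor type IV pairs the groups overlapped: Col4a3 to Col4a4 was 0.455 to 0.669 in MASH and 0.549 to 1.44 in CD, and Col4a5 to Col4a6 was 3.22 to 4.37 in MASH and 3.05 to 11.4 in CD. Ratios depend on the annotated transcript lengths, which scale all libraries alike, and they were not tested.

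**Figure D3:**
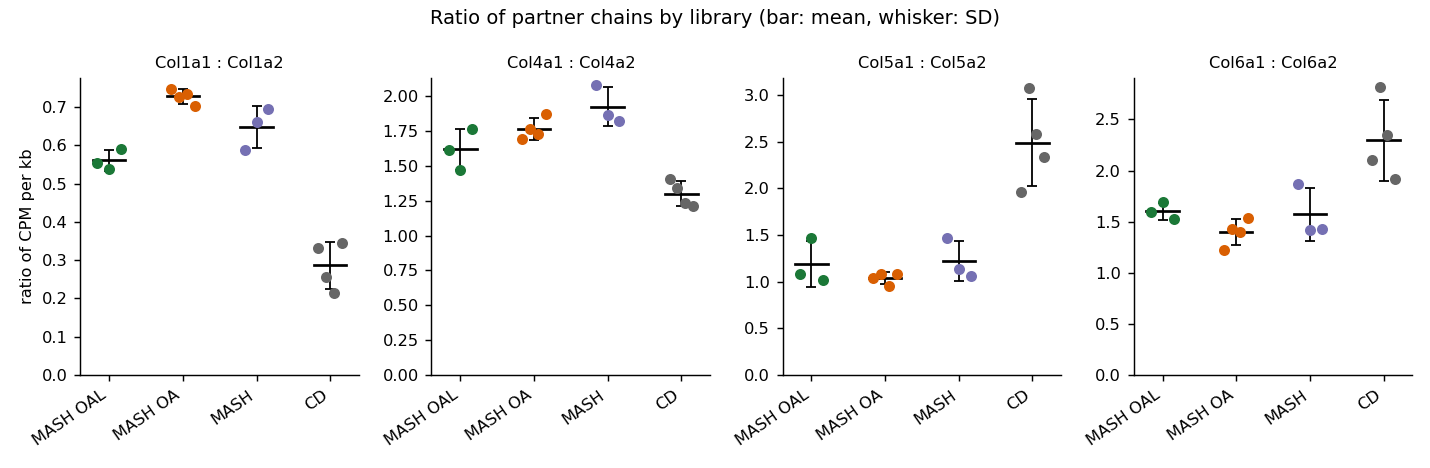
Ratio of CPM per kilobase for 4 pairs of partner chains in each library; points are libraries, bars the mean and whiskers the SD of 3 or 4 libraries. Groups follow the titles. For Col1a1 to Col1a2, MASH OA sits at 0.703 to 0.748, MASH OAL at 0.538 to 0.591 and CD at 0.215 to 0.345. For Col5a1 to Col5a2 and for Col6a1 to Col6a2 the CD libraries are the highest.

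The comparison of MASH OA with MASH asks whether C18:1 moves collagen transcripts on the MASH diet. No collagen gene was called in edgeR, where 0% of all tested genes were called. DESeq2 and limma voom also called 0 collagen genes, and 3 and 0 of all 15674 tested genes. At an unadjusted p under 0.05 edgeR counted 1 collagen gene, Col4a2, where 6.18% of all tested genes reached that level. That count was 15 without MASH replicate 4 (1935 of 15890 genes in all) and 9 without MASH OA replicate 2 (1664 of 15640). It was 0 without MASH OA replicate 3 (915 of 15532) or MASH replicate 2 (346 of 15922), and 9 with limma voom (1848 of 15674). None of the 24 settings called a collagen gene at the adjusted threshold. Col4a2 stood at 101, 54.8, 78.1 and 65.8 CPM in MASH OA replicates 1 to 4 and 39.9, 62.9 and 60.1 CPM in MASH, a log2 fold change of 0.46 ± 0.19 (SE; edgeR adjusted p = 0.77). The median over the 33 genes was 0.42, against 0.00 over all tested genes, and 25 of the 33 were positive.

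The fibril chains varied widely within both groups. Col1a1 stood at 143, 41.8, 104 and 79.8 CPM in MASH OA and 25.3, 48.8 and 95.1 CPM in MASH, with wide overlap. Its log2 fold change was 0.71 ± 0.47 (SE; edgeR adjusted p = 0.775), with a 95% interval of −0.31 to 1.73. The intervals were −0.33 to 1.48 for Col1a2, −0.31 to 1.48 for Col3a1 and −0.03 to 0.73 for Col4a1. The next smallest p values belonged to Col4a1, Col15a1, Col5a3, Col5a2 and Col6a3, with log2 fold changes of 0.35 ± 0.18, 0.79 ± 0.43, −0.32 ± 0.18, 0.53 ± 0.30 and 0.79 ± 0.47 (SE), each at an edgeR adjusted p of 0.77. With groups taken from the tags, which moves MASH OA replicate 1 into MASH and MASH OAL replicate 1 into MASH OA, the median was −0.20. It was 0.23 without MASH OA replicate 1 and also 0.23 without both libraries.

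The comparison of MASH OAL with MASH asks the same of C18:1-leucine. No collagen gene was called in edgeR, where 0.0702% of all tested genes were called. At an unadjusted p under 0.05 edgeR counted 3 (Col12a1, Col4a1 and Col7a1), where 18.1% of all tested genes reached that level. At the adjusted threshold limma voom called 0 collagen genes and DESeq2 called 1, Col12a1. Of all 15674 tested genes, limma voom called 617 and DESeq2 945. The unadjusted collagen count was 7 without MASH replicate 2 (2344 of 15922 genes in all) and 5 without CD replicate 1 (2977 of 15675). It was 7 in a fit of the compared groups alone (2469 of 15028) and 6 with the replicate block (2992 of 15674). With groups from the tags it was 6 (2340 of 16000), and 26 of the 33 genes were negative, against 21 with groups from the titles. Col12a1 stood at 4.75, 5.73 and 6.17 CPM in MASH OAL replicates 1, 2 and 4 and 7.72, 13.1 and 8.76 CPM in MASH, all MASH OAL values below all MASH values. Its log2 fold change was −0.83 ± 0.22 (SE; edgeR adjusted p = 0.0964), and 0.0155 was the adjusted p in DESeq2. Col4a1 stood at 60.1, 67.8 and 84.99 CPM in MASH OAL and 85.2, 120.3 and 112 CPM in MASH, where the highest MASH OAL library lay just under the lowest MASH library (log2 fold change −0.58 ± 0.19, SE; edgeR adjusted p = 0.142). Col7a1, low in abundance, went the other way at 1.25, 1.04 and 0.716 CPM in MASH OAL and 0.476, 0.549 and 0.471 CPM in MASH (log2 fold change 1.00 ± 0.33, SE; edgeR adjusted p = 0.149).

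The type I and type III chains overlapped between MASH OAL and MASH. The 95% intervals of the log2 fold change were −1.82 to 0.35 for Col1a1, −1.46 to 0.47 for Col1a2, −1.71 to 0.19 for Col3a1 and −0.78 to 0.09 for Col4a2. Col14a1 (−0.38 ± 0.18), Col11a2 (−0.59 ± 0.29) and Col25a1 (1.27 ± 0.62, all SE) had the next smallest p values and edgeR adjusted p of 0.294, 0.303 and 0.304. Over the 33 genes the median was −0.21, against −0.01 over all tested genes. Without MASH replicate 4 it was 0.19, so the sign of the median rests on that library.

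MASH OAL against MASH OA sets the conjugate beside the fatty acid alone; the compounds differ by the leucine joined to C18:1, and this is the single pair of compounds compared. Of 33 collagen genes, 6 were lower and 0 higher in MASH OAL, where 8.89% of all tested genes were lower and 7.34% higher (edgeR, adjusted p under 0.05). The median log2 fold change was −0.67, against −0.02 over all tested genes. All 6 were among the 17 genes higher in MASH than in CD; the libraries of these comparisons differ, but both come from 1 fit that shares its estimate of the spread. The 6 were 2 of 9 fibrillar, 2 of 6 basement membrane and 2 of 5 FACIT chains. Values did not overlap for 5 genes that were lower (14.2% of all tested genes) and 1 that was higher (13.5%), and 12 genes had an unadjusted p under 0.05 (32% of all tested genes).

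Both main type IV chains were lower in MASH OAL. Col4a1 stood at 60.1, 67.8 and 84.99 CPM in MASH OAL and 175, 99.1, 138 and 126 CPM in MASH OA, a log2 fold change of −0.93 ± 0.18 (SE; edgeR adjusted p = 0.00732). Col4a2 stood at 36.3, 44.9 and 46.9 CPM in MASH OAL and 101, 54.8, 78.1 and 65.8 CPM in MASH OA (log2 fold change −0.81 ± 0.19, SE; edgeR adjusted p = 0.0151). In both genes the highest MASH OAL library lay below the lowest MASH OA library, which was replicate 2. Of the FACIT chains, Col12a1 stood at 4.75, 5.73 and 6.17 CPM in MASH OAL and 10.8, 6.76, 8.64 and 10.2 CPM in MASH OA, without overlap (log2 fold change −0.72 ± 0.21, SE; edgeR adjusted p = 0.0326). Col14a1 stood at 66.1, 80.1 and 91.7 CPM in MASH OAL and 149, 83.8, 118 and 131 CPM in MASH OA, with overlap through MASH OA replicate 2 (log2 fold change −0.60 ± 0.17, SE; edgeR adjusted p = 0.0342).

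Among fibrillar chains, Col5a1 stood at 19.4, 16.6 and 19.7 CPM in MASH OAL and 42.5, 21.02, 31.9 and 26.2 CPM in MASH OA, without overlap (log2 fold change −0.71 ± 0.22, SE; edgeR adjusted p = 0.0411). Col3a1 stood at 85.8, 72.4 and 125 CPM in MASH OAL and 396, 118, 248 and 197 CPM in MASH OA, with overlap (log2 fold change −1.35 ± 0.42, SE; edgeR adjusted p = 0.0475). Col1a1 stood at 42.9, 20.1 and 38.5 CPM in MASH OAL and 143, 41.8, 104 and 79.8 CPM in MASH OA, and its log2 difference of −1.45 ± 0.48 (SE; edgeR adjusted p = 0.06) was as large as that of Col3a1 but missed the threshold. Col1a2 differed by −1.07 ± 0.42 (SE; edgeR adjusted p = 0.106), with a 95% interval of −1.99 to −0.15. MASH OA replicate 2 had 41.8 CPM of Col1a1, inside the MASH OAL range of 20.1 to 42.9 CPM. Without it, 12 collagen genes were lower, Col1a1 and Col1a2 among them, where 1609 of all 15640 tested genes were lower. Col5a3 hardly differed, at −0.02 ± 0.18 (SE; 95% interval −0.41 to 0.37).

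These calls rest on few libraries. Leaving out each library in turn gave 1 to 12 called collagen genes, and of the 6 only Col4a1 was called throughout. Without MASH OAL replicate 1 or without MASH OAL replicate 2 it was the single call, and without MASH OA replicates 1, 3 or 4 there were 2, 3 and 3. Calls over all tested genes moved too: 2544 with all libraries, and 1260 and 756 without MASH OAL replicates 1 and 2. They were 1237, 2063 and 1238 without MASH OA replicates 1, 3 and 4, and 3043 without MASH OA replicate 2. Leaving out libraries of the other groups moved the collagen count as well: 4 were called without CD replicate 2, 3 or 4 (2360, 2288 and 2443 genes in all). The Col3a1 call ended when any 1 of the 4 CD libraries was left out. Without both libraries whose tags and titles disagree, 0 were called in edgeR (6 at an unadjusted p under 0.05), with Col4a1 at −0.67 and adjusted p = 0.0584; over all genes 487 were called, against 2544 with all libraries. With groups from the tags 0 collagen genes were called (0 unadjusted), and over all 16000 genes 0 (1991 unadjusted). Without both libraries with pancreatic transcripts 0 collagen genes were called (7 unadjusted), with Col4a1 at −0.89 and edgeR adjusted p = 0.0526. Over all 15952 genes of that fit 593 were called (3648 unadjusted).

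**Figure D4:**
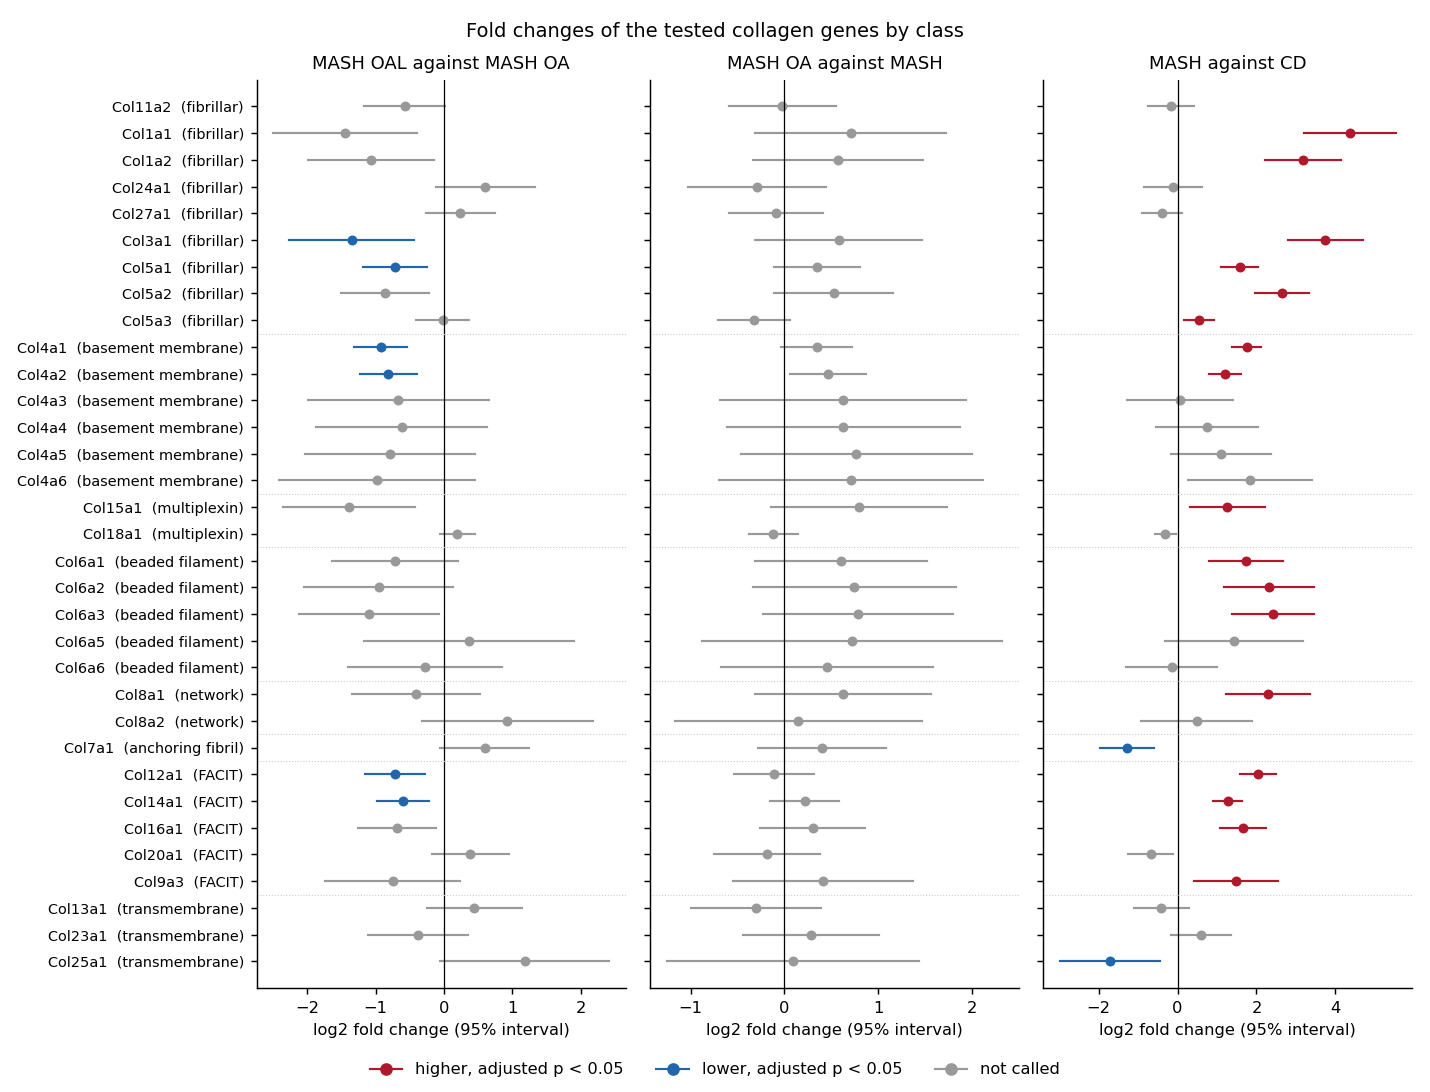
Log2 fold change of the 33 tested collagen genes with its 95% interval in 3 comparisons, ordered by class; red marks genes called higher, blue genes called lower and grey genes not called (edgeR, adjusted p under 0.05), and each panel has its own axis. MASH against CD has 17 red and 2 blue genes, MASH OA against MASH none and MASH OAL against MASH OA 6 blue genes.

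Markers of other cells differed in the same comparison, where 8.89% of all tested genes were lower and 7.34% higher; with groups from the tags none of 16000 tested genes was called, so these marker calls were lost too. Macrophage markers summed to 171 to 303 CPM in MASH OAL and 354 to 591 CPM in MASH OA (4 of 6 lower, none higher), and hepatocyte markers to 63830 to 87830 CPM in MASH OAL and 43290 to 54710 CPM in MASH OA (4 of 7 higher, none lower). Stellate cell markers summed to 345 to 420 CPM in MASH OAL and 318 to 524 CPM in MASH OA, with 0 of 9 called (edgeR). Portal fibroblast markers summed to 82.2 to 136 CPM in MASH OAL and 111 to 217 CPM in MASH OA (1 of 7 lower, none higher). Cholangiocyte markers, at 22.1 to 35.4 CPM in MASH OAL and 23.3 to 59.1 CPM in MASH OA, had 1 of 7 lower. Sinusoidal endothelial markers, at 321 to 337 CPM in MASH OAL and 287 to 376 CPM in MASH OA, had 0 of 7 called. The part of these cells in the collagen differences was not tested.

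Against CD, both treated groups still carried higher collagen transcripts. In MASH OA, 20 of 33 collagen genes were higher and 4 lower, where 27.8% and 24.9% of all tested genes were so, and the median was 1.88. In MASH OAL, 15 were higher and 0 lower, where 10.2% and 4.34% of all tested genes were so, and the median was 1.09. Both comparisons use the same CD libraries as MASH against CD. Col1a1 differed by 3.63 ± 0.52 (SE; edgeR adjusted p = 0.00139) in MASH OAL and 5.08 ± 0.53 (SE; edgeR adjusted p = 1.37e-05) in MASH OA. Col3a1 differed by 2.98 ± 0.43 (SE; edgeR adjusted p = 0.00136) in MASH OAL and 4.33 ± 0.44 (SE; edgeR adjusted p = 1e-05) in MASH OA. Col4a1 differed by 1.17 ± 0.17 (SE; edgeR adjusted p = 0.00138) in MASH OAL and 2.10 ± 0.17 (SE; edgeR adjusted p = 1.52e-06) in MASH OA. In each of these genes no library of a treated group fell into the CD range. Leaving out libraries kept 10 of the 15 calls of MASH OAL and 20 of the 24 of MASH OA in every fit. With groups from the tags, Col4a2, Col6a1, Col6a2, Col6a3 and Col6a5 lost their calls in MASH OAL (edgeR adjusted p = 0.0836, 0.114, 0.0882, 0.0521 and 0.336), and Col6a1 and Col6a5 also without both libraries whose labels disagree (0.0739 and 0.296). In MASH OA, Col4a5, Col7a1, Col18a1, Col23a1 and Col25a1 lost theirs with groups from the tags (edgeR adjusted p = 0.0604, 0.144, 0.0979, 0.101 and 0.0658), and Col23a1 also without both libraries (0.104).

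Markers of other cells differed from CD as well. In MASH OAL, 3 of 9 stellate, 5 of 7 portal fibroblast, 0 of 7 cholangiocyte, 3 of 6 mesothelial and 3 of 6 macrophage markers were higher, and 1 of 7 hepatocyte markers was lower (edgeR). In MASH OA, 8 of 9 stellate, 7 of 7 portal fibroblast, 4 of 7 cholangiocyte, 4 of 6 mesothelial and 5 of 6 macrophage markers were higher, and 7 of 7 hepatocyte markers were lower. Of 7 sinusoidal endothelial markers, 0 were called in MASH OAL, and 1 was higher and 1 lower in MASH OA. Their part in the collagen differences was not tested.

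Col15a1, Col5a3 and Col9a3 were not called in MASH OAL against CD, at 0.66 ± 0.44, 0.20 ± 0.18 and 1.14 ± 0.51 (SE). Col18a1 was lower in MASH OA than in CD, with a log2 fold change of −0.43 ± 0.11 (SE; edgeR adjusted p = 0.00608), at 738, 806, 903 and 791 CPM in MASH OA and 1102, 1172, 1005 and 1072 CPM in CD. In MASH OAL it stood at 1102, 900.1 and 781 CPM, overlapping CD (log2 fold change −0.23 ± 0.12, SE; edgeR adjusted p = 0.209). Col7a1 was lower in MASH OA than in CD (log2 fold change −0.88 ± 0.28, SE; edgeR adjusted p = 0.0189), a call that ended without CD replicate 1 (adjusted p = 0.0749), and was not called in MASH OAL (log2 fold change −0.28 ± 0.30, SE; edgeR adjusted p = 0.548). Col20a1 was lower in MASH OA as well (log2 fold change −0.87 ± 0.24, SE; edgeR adjusted p = 0.00875), against −0.48 ± 0.26 (SE; edgeR adjusted p = 0.219) in MASH OAL. Col6a5, a minor type VI chain, was called higher in MASH OAL (log2 fold change 2.53 ± 0.79, SE; edgeR adjusted p = 0.0496) at 3.85, 0.493 and 1.10 CPM in MASH OAL and 0.0575, 0.504, 0.176 and 0.530 CPM in CD. Its highest value came from MASH OAL replicate 1, a library whose tag and title disagree, the groups overlapped, and the call was lost in 10 of the 14 fits that left out a library.

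The minor type IV chains were highest in the same few libraries. Col4a5 stood at 2.88, 2.08 and 4.00 CPM in MASH OAL, 7.40, 1.73, 9.04 and 2.39 CPM in MASH OA, 1.51, 1.74 and 5.85 CPM in MASH and 1.12, 1.39, 1.41 and 1.71 CPM in CD. Col4a6 stood at 0.795, 0.467 and 0.962 CPM in MASH OAL, 2.41, 0.483, 2.43 and 0.500 CPM in MASH OA, 0.352, 0.549 and 1.78 CPM in MASH and 0.374, 0.178, 0.126 and 0.324 CPM in CD. MASH OA replicates 1 and 3 and MASH replicate 4 were the 3 highest libraries for both chains, and the same 3 had the highest summed cholangiocyte markers. These libraries also had the highest portal fibroblast sums (208, 217 and 158 CPM, next 136 CPM) and the highest Col1a1 (143, 104 and 95.1 CPM) and Col6a3 (121, 96.8 and 74.5 CPM). Col4a4 had its 3 highest values in these libraries too, at 3.11, 2.53 and 2.17 CPM. Within MASH OA, the highest library exceeded the lowest 5.2-fold for Col4a5 and 1.8-fold for Col4a1. The part of bile duct cells and portal fibroblasts in these values was not tested. Across groups Col4a5 and Col4a6 were called higher in MASH OA than in CD, with log2 fold changes of 1.88 ± 0.56 (SE; edgeR adjusted p = 0.0128) and 2.55 ± 0.69 (SE; edgeR adjusted p = 0.00758).

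**Figure D5:**
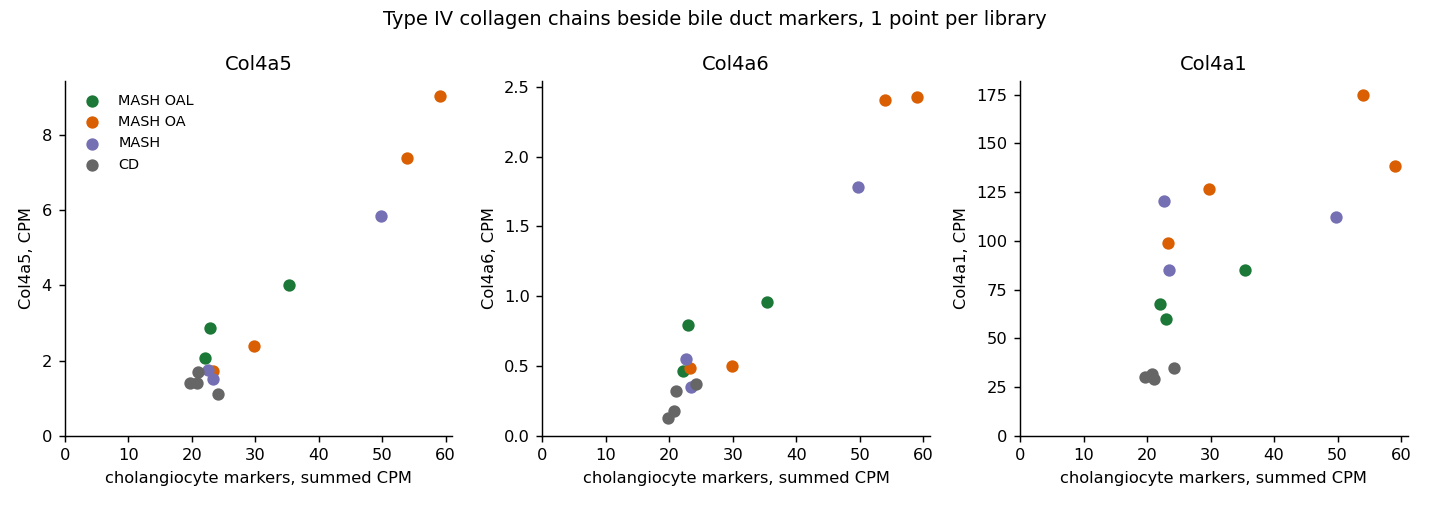
CPM of Col4a5, Col4a6 and Col4a1 against the summed CPM of 7 cholangiocyte markers, 1 point per library, coloured by group. The 3 libraries with 49.8 to 59.1 CPM of cholangiocyte markers (MASH OA replicates 1 and 3 and MASH replicate 4) hold the highest Col4a5 and Col4a6 values, whereas Col4a1 reaches 99.1 CPM in MASH OA replicate 2, at 23.3 CPM of markers.

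Genes that process or bind collagen were counted by list, to be read against all tested genes: 20.4% were higher and 15.1% lower in MASH against CD, and 7.34% were higher and 8.89% lower in MASH OAL against MASH OA. With groups from the tags no gene was called in MASH OAL against MASH OA, so every list call of that comparison was lost there. Of 6 cross-linking genes, 6 were higher in MASH than in CD and 3 lower in MASH OAL than in MASH OA. Lox, the lysyl oxidase that starts covalent cross-links between fibrils, averaged 1.66 ± 0.72 CPM in MASH and 0.226 ± 0.087 CPM in CD (log2 2.87 ± 0.39, SE; edgeR adjusted p = 0.00014). It averaged 1.36 ± 0.20 CPM in MASH OAL and 3.21 ± 1.10 CPM in MASH OA (log2 −1.25 ± 0.34; adjusted p = 0.0252, edgeR). Tgm2, a transglutaminase, averaged 173 ± 11.6 CPM in MASH OAL and 346 ± 39.6 CPM in MASH OA (edgeR adjusted p = 0.00329). Loxl2, a relative of Lox, averaged 8.93 ± 0.42 CPM in MASH OAL and 17.1 ± 4.96 CPM in MASH OA (adjusted p = 0.0138, edgeR).

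Of 16 basement membrane partners, 12 were higher and 1 lower in MASH than in CD, and 3 were lower in MASH OAL than in MASH OA, namely Nid1, Lamc1 and Hspg2. Nid1, which bridges laminin and type IV collagen, averaged 26.9 ± 2.93 CPM in MASH OAL and 57.4 ± 14.7 CPM in MASH OA (log2 −1.10 ± 0.19, SE; edgeR adjusted p = 0.00455). It averaged 48.8 ± 8.41 CPM in MASH and 13.8 ± 1.54 CPM in CD. Of 18 tested hydroxylation, glycosylation and folding genes, 7 were higher and 2 lower in MASH than in CD. Plod2, a lysyl hydroxylase of collagen telopeptides, differed by 1.89 ± 0.40 and Fkbp10, a collagen chaperone, by 1.91 ± 0.38 (log2, SE). In MASH OAL against MASH OA, 2 of the 18 (Colgalt1 and Crtap) were lower, a share near that of all tested genes.

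Of 8 genes of procollagen export, none were higher, 4 lower and 4 not called in MASH against CD (median log2 fold change −0.20), and 3 were higher, none lower and 5 not called in MASH OAL against MASH OA (median 0.07). Mia3 (TANGO1), which loads procollagen at the exit sites of the endoplasmic reticulum, averaged 119.5 ± 13.3 CPM in MASH and 198 ± 6.51 CPM in CD (log2 −0.73 ± 0.10, SE; edgeR adjusted p = 0.000169). It averaged 138 ± 19.6 CPM in MASH OAL and 108 ± 6.51 CPM in MASH OA (log2 0.36 ± 0.10; adjusted p = 0.0265, edgeR). Of 6 tested propeptide removal genes, 3 were higher and 1 lower in MASH. Adamts2, which cuts the amino end of procollagen, was higher (log2 2.07 ± 0.37, SE), and Bmp1, which cuts the carboxyl end, was lower (−0.68 ± 0.10). Of 9 tested collagen receptors, 4 were higher in MASH than in CD, with Ddr1 and Ddr2, kinases that bind collagen, at 2.14 ± 0.46 and 0.64 ± 0.15 (log2, SE), and Lair1 and Itga2 were lower in MASH OAL than in MASH OA. Of 7 tested fibril-bound proteoglycans, 5 were higher in MASH and 0 were called in MASH OAL against MASH OA (edgeR). No gene of these 7 lists was called in MASH OA against MASH or in MASH OAL against MASH (edgeR).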

How the data were processed

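Mouse liver RNA was sequenced in 14 libraries; per the labels' protocols the libraries were made with a NEBNext Ultra II kit. The submitters' processing notes name GRCm38, HTSeq and DESeq2 1.42.1. The authors deposited expected counts per gene, of which 5.09 to 5.76% per library were not whole, and these were rounded. The labels do not state whether counting used the strand. The members, lists and tests were chosen with earlier results of these data known.

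Groups follow the titles. All 14 libraries entered one fit of edgeR 4.0.16 (R 4.3.3) with TMM scaling, a filter on low counts (minimum 10 counts, total 15) and the robust quasi-likelihood F test, two-sided. P-values were adjusted by Benjamini and Hochberg over 15674 genes, with a threshold of 0.05, and "called" means under it. CPM use TMM-scaled library sizes; levels per kilobase use the transcript with the longest coding sequence in GENCODE M21. Intervals of log2 fold changes are 95%. DESeq2 1.42.0 and limma voom (limma 3.58.1) were alternatives. On simulated counts for MASH OAL against MASH OA (15476 genes), 75.4% of genes changed 2-fold were recovered. The changed genes were drawn at random from all tested genes, with the spread of the trend across genes. The share is therefore not the recovery for collagen genes, and a collagen gene that was not called may still differ. Replicates differed by more than sampling noise.

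In MASH against CD every tested collagen gene could be named. In other comparisons the rule took called genes, the 6 with the smallest p and Col1a1, Col1a2, Col3a1, Col4a1 and Col4a2. Col5a3, Col7a1, Col9a3, Col15a1, Col18a1 and Col20a1 were added there after their values were seen. In the lists of other genes, up to 4 genes with the smallest p were named.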

Additional observations from a re-analysis of the deposited data

Results flagged for a closer look

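Within groups of 4 libraries, 5 of 66 tests of collagen genes found a library far from the other 3 of its group, where chance gives about 1 in 20. Col5a3 was 113 CPM in MASH OA replicate 1, against 84.6 to 88.8 CPM in the rest of MASH OA. Col5a3 was also 116 CPM in CD replicate 2, against 64.2 to 72.8 CPM in the rest of CD. Col7a1 was 0.398 CPM in MASH OA replicate 2, against 0.718 to 0.782 CPM in the rest of MASH OA. Col11a2 was 3.34 CPM in CD replicate 1, against 1.79 to 2.04 CPM in the rest of CD. Col24a1 was 0.755 CPM in CD replicate 3, against 0.534 to 0.559 CPM in the rest of CD. MASH OA replicate 1 has a tag that disagrees with its title, and CD replicate 2 holds pancreatic transcripts; the part of either in these values was not tested.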

How the results depend on the processing

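Each comparison was refitted under 24 other settings. In MASH against CD, the median over the collagen genes was 1.55 with groups from the treatment tags. In MASH OA against MASH, groups from the tags turned the median to −0.20 and the log2 fold changes of Col15a1 to −0.13, Col1a1 to −0.21, Col1a2 to −0.19, Col3a1 to −0.43, Col4a1 to −0.21, Col4a2 to −0.16, Col5a2 to −0.11 and Col6a3 to −0.25. In MASH OAL against MASH, DESeq2 called 1 collagen gene (945 of 15674 genes in all), and without MASH replicate 4 the median was 0.19. Leaving out each library in turn gave −0.81 to 0.037 for Col1a2. In MASH OAL against MASH OA, DESeq2 called 10 collagen genes (3330 of 15674 genes in all), limma voom 12 (4458 of 15674) and a fit of the 2 groups alone 3 (1621 of 15294). In that comparison 0 collagen genes were called with groups from the tags (0 of 16000 in all). Also 0 were called without both libraries whose labels disagree (487 of 15817) and 0 without both libraries with pancreatic transcripts (593 of 15952). In MASH OA against CD, the median was 1.51 with no filter on low counts, 1.38 with groups from the tags and 1.59 without both libraries whose labels disagree. The cause of these shifts was not tested.

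Leaving out each library in turn gave 15 to 19 calls and medians of 0.85 to 1.43 in MASH against CD, 0 calls and medians of 0.23 to 0.57 in MASH OA against MASH, and 0 calls and medians of −0.41 to 0.19 in MASH OAL against MASH. It gave 1 to 12 calls and medians of −0.85 to −0.46 in MASH OAL against MASH OA, 21 to 26 calls and medians of 1.59 to 2.04 in MASH OA against CD, and 10 to 15 calls and medians of 0.80 to 1.16 in MASH OAL against CD. Over all tested genes these fits called 3811 to 5730 in MASH against CD, 0 in MASH OA against MASH and 0 to 61 in MASH OAL against MASH. They called 756 to 3043 in MASH OAL against MASH OA, 6953 to 8522 in MASH OA against CD and 976 to 2427 in MASH OAL against CD. Correlations of same-numbered libraries of different groups ran from −0.24 to 0.42. Libraries with different numbers were not set beside them, so this does not settle whether the numbers pair the libraries. With the replicate number as a block, 9 collagen genes were called in MASH OAL against MASH OA, with Col1a1 at an edgeR adjusted p of 0.0118, 19 in MASH against CD, 0 in MASH OA against MASH, 0 in MASH OAL against MASH, 22 in MASH OA against CD and 14 in MASH OAL against CD. In the same order, that fit called 2306, 5249, 0, 35, 7928 and 1851 of all 15674 tested genes. Among log2 fold changes of single named genes over all settings, 1869 kept direction and side of the threshold, 151 lost the call, 11 gained it and 9 turned in sign. The tally includes genes not called in the main fit, which could not lose a call. It also includes fits without a library of a group outside the comparison, so it does not measure how stable the calls were. Groups of 3 or 4 libraries limit the precision, most of all for chains under 1 CPM.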
